A study of Mus musculus with 34 samples.

Results

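The genes described here are 5 receptor chains, Ifnar1, Ifnar2, Ifngr2, Il10rb and Ifngr1, chosen by name as the interferon and interleukin 10 receptor chains of mouse chromosome 16 together with Ifngr1, the partner chain of Ifngr2 that lies elsewhere. They are 5 of 55385 genes in the count table. They were measured by poly-A RNA-seq in the cerebral cortex of 34 mice aged 6 months, with 1 library per mouse and 16 females and 18 males. 5xFAD mice carry human transgenes with mutations of familial Alzheimer disease, driven by neuronal Thy1 sequences. Dp16 mice carry an extra copy of the chromosome 16 segment that is homologous to much of human chromosome 21. Mice of the 4 genotypes received either tofacitinib, an inhibitor of Janus kinases, at 15 mg/kg by daily gavage for a month, or the sham vehicle, 0.5% methylcellulose. The 5xFAD-Dp16 mice, with both the transgenes and the duplication, gave 4 tofacitinib and 3 sham libraries. Dp16 mice gave 5 tofacitinib and 3 sham libraries, 5xFAD mice gave 5 and 4, and wild-type (WT) C57BL/6J mice gave 5 and 5. The 15 libraries of 5xFAD-Dp16 and Dp16 mice are called duplication carriers below, and the 19 libraries of 5xFAD and WT mice non-carriers.

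Interferon and interleukin 10 family receptors are pairs of different chains, and a cell needs both chains of a pair to respond. Ifnar1 and Ifnar2 form the receptor of type I interferons, and Ifngr1, which binds interferon gamma, pairs with Ifngr2, which carries the signal on through Jak2. Il10rb is the shared second chain of the receptors for interleukin 10, interleukin 22 and interferon lambda, where it works with Il10ra, Il22ra1 or Ifnlr1. The chains bind Janus kinases inside the cell, which phosphorylate STAT factors, and these switch on interferon-stimulated genes. In humans the corresponding 4 genes lie on chromosome 21 and are present in an extra copy in Down syndrome.

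In the GENCODE M21 annotation of GRCm38 the 4 genes of the cluster are protein-coding genes on the plus strand and lie within 192841 bases. Ifnar2 (ENSMUSG00000022971.18) spans chr16:91372783-91405589 and Il10rb (ENSMUSG00000022969.13) starts 574 bases after its end and spans chr16:91406164-91425834. Ifnar1 (ENSMUSG00000022967.13) spans chr16:91485238-91507441 and Ifngr2 (ENSMUSG00000022965.8) spans chr16:91547072-91565623. All 4 lie inside the duplicated segment, taken here as chr16:75540514-97962622, which holds 384 genes of the table. Ifngr1 (ENSMUSG00000020009.13) spans chr10:19591949-19610229 and is not duplicated. A readthrough gene on the same strand, Gm21970, shares 9.46% of the exon bases of Ifnar2 and 14.9% of those of Il10rb. It had 1 count over all 34 libraries, and how reads in the shared bases were counted is not given in the sources used here.

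The promoters of Ifnar2, Ifnar1, Ifngr2 and Ifngr1 are shown, and that of Il10rb is not shown here, because the letters let the start regions of duplicated chains be set beside that of the partner chain outside the segment. Each is the 250 bases before the RefSeq transcription start on the plus strand of GRCm38.p6, 5′ to 3′. Capitals mark matches, on either strand, to the interferon-stimulated response element core GAAANNGAAA, the gamma-activated site TTCNNNGAA or the GC box GGGCGG.
Ifnar2, chr16:91372533-91372782: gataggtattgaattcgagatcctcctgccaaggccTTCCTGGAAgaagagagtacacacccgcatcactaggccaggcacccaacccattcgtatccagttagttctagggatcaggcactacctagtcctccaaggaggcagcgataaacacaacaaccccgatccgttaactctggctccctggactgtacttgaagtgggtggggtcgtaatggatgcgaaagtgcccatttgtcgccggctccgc
Ifnar1, chr16:91484965-91485214: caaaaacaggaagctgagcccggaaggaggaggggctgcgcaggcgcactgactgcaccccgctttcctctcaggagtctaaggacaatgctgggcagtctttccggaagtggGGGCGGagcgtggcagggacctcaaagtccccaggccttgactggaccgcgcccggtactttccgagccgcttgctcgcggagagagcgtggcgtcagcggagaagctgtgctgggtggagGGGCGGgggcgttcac
Ifngr2, chr16:91546809-91547058: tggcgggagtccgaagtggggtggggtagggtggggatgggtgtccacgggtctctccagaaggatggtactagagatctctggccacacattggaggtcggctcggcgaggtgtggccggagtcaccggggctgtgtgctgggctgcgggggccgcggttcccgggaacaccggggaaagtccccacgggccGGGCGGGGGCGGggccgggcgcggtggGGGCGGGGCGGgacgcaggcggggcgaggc
Ifngr1, chr10:19591699-19591948: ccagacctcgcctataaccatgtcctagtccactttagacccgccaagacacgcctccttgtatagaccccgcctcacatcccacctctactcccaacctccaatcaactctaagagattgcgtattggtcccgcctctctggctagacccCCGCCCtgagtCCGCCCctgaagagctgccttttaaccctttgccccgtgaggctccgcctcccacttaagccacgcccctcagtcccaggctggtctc
The Ifnar2 promoter held 1 match to the gamma-activated site, with its first base at -214 from the start, and no GC box. The Ifnar1 promoter held 2 GC boxes, at -137 and -16, and the Ifngr2 promoter held 4, at -57, -51, -30 and -25, of which the last 2 overlap by 1 base. The Ifngr1 promoter held 2 GC boxes on the minus strand. None of the 4 held the response element core. Among 32851 RefSeq promoters of the same length, 2.98% held the response element core, 7.02% the gamma-activated site and 32.7% a GC box. The GC content was 74.0% for Ifngr2, 65.6% for Ifnar1, 59.2% for Ifngr1 and 54.0% for Ifnar2, against a median of 52.4% over all promoters (quartiles 45.2% and 61.2%). A match describes the letters of the window and does not show that a factor binds there.

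Library totals ran from 16029841 to 21388650 counted reads. In a principal component analysis of log2 CPM, which are counts scaled to the normalized library total, 2 libraries stood apart from the rest, WT sham 2 and 5xFAD tofacitinib 2. In 5xFAD tofacitinib 2 the summed choroid plexus markers were at 1515 CPM, against 6.09 to 976 CPM in the other 32 libraries, and the cortex markers were at 260 CPM, against 494 to 871 CPM. Each result below is given with these libraries in place, and values without them are added where they bear on it. The duplication was visible in the libraries labelled as carriers: 70 of the 106 genes of the segment that were tested were called in the average of all carrier comparisons. Called means an adjusted p under 0.05 in edgeR's quasi-likelihood test, with Benjamini-Hochberg adjustment over all 17632 genes tested, and this holds for every adjusted p below unless another tool is named. All 5 chains passed the filter on low counts. They had between 101 and 1708 reads per library, with the fewest for Il10rb.

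Ifnar1, the chain of the type I interferon receptor that recruits Tyk2, was higher in every carrier library than in any non-carrier library. In sham-treated mice it was at 58.8, 60.4 and 65.5 CPM in 5xFAD-Dp16 cortex, against 38.7, 38.2, 39.1 and 40.6 CPM in 5xFAD cortex. In the other sham pair it was at 56.1, 53.0 and 58.2 CPM in Dp16 cortex, against 28.9, 34.9, 30.6, 31.6 and 32.8 CPM in WT cortex. The groups of both sham pairs were far apart. Under tofacitinib it was at 52.5, 60.6, 51.7 and 60.4 CPM in 5xFAD-Dp16 cortex, against 40.6, 33.3, 35.8, 39.0 and 36.9 CPM in 5xFAD cortex. In the other tofacitinib pair it was at 56.4, 48.7, 61.6, 49.9 and 62.8 CPM in Dp16 cortex, against 37.4, 37.3, 35.8, 34.5 and 41.5 CPM in WT cortex. No group of carriers overlapped with its non-carrier group. Of all genes tested, 0.0907% were higher in every carrier than in every non-carrier library. Within single pairs that share was 5.32% for 5xFAD-Dp16 against 5xFAD and 2.77% for Dp16 against WT under sham, and 1.26% and 0.771% for the same pairs under tofacitinib. Averaged over the 4 pairs, the log2 fold change was 0.67 (SE 0.0446), a 1.59-fold rise with a 95% interval of 1.49 to 1.69 and an adjusted p of 1.70e-12.

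Ifnar2, the chain that binds type I interferons with high affinity and carries the docking sites of the STAT factors, also rose. In sham-treated mice it was at 22.9, 26.3 and 23.8 CPM in 5xFAD-Dp16 cortex, against 13.1, 17.9, 16.3 and 19.0 CPM in 5xFAD cortex. It was at 23.7, 26.1 and 26.9 CPM in Dp16 sham cortex, against 14.7, 12.2, 12.1, 14.5 and 17.9 CPM in WT sham cortex. Neither sham pair overlapped, where 5.32% and 2.77% of all genes tested were higher without overlap. Under tofacitinib it was at 22.0, 23.7, 20.03 and 23.5 CPM in 5xFAD-Dp16 cortex, against 16.7, 21.6, 18.1, 15.8 and 14.9 CPM in 5xFAD cortex. It was at 25.9, 22.9, 21.0, 25.7 and 24.2 CPM in Dp16 tofacitinib cortex, against 17.0, 11.8, 14.4, 14.5 and 14.7 CPM in WT tofacitinib cortex. The single overlap within a pair came from 5xFAD tofacitinib 2 at 21.6 CPM, the library with the highest choroid plexus marker sum. The part of its tissue content in this value was not tested. Over all pairs, 13 of the 15 carrier libraries were above every non-carrier library. The average log2 fold change was 0.63 (SE 0.0659), a 1.54-fold rise (95% interval 1.41 to 1.70, adjusted p 6.74e-08).

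Ifngr2, the signalling chain of the interferon gamma receptor, rose as well and had the highest level per length of the 5 chains. In sham-treated mice it was at 80.4, 81.4 and 77.1 CPM in 5xFAD-Dp16 cortex, against 46.9, 47.9, 47.7 and 49.4 CPM in 5xFAD cortex. It was at 82.5, 91.2 and 85.9 CPM in Dp16 sham cortex, against 54.0, 51.6, 44.2, 50.1 and 46.1 CPM in WT sham cortex. Every carrier was above every non-carrier. Under tofacitinib it was at 77.4, 80.5, 77.1 and 80.2 CPM in 5xFAD-Dp16 cortex, against 50.3, 60.7, 53.3, 51.1 and 54.9 CPM in 5xFAD cortex. It was at 76.2, 80.9, 78.0, 85.5 and 73.9 CPM in Dp16 tofacitinib cortex, against 49.5, 44.3, 60.8, 47.4 and 40.4 CPM in WT tofacitinib cortex. The groups were separate here too. Over both treatments 0.0907% of all genes tested were higher in every carrier than in every non-carrier library. The average log2 fold change was 0.69 (SE 0.0453), a 1.62-fold rise (95% interval 1.51 to 1.72, adjusted p 1.70e-12).

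Il10rb, the shared chain, had the lowest level of the cluster and rose in the average of the pairs. It was at 12.8, 14.6 and 11.8 CPM in 5xFAD-Dp16 sham cortex, against 9.16, 9.02, 6.02 and 9.10 CPM in 5xFAD sham cortex. It was at 9.86, 10.6 and 11.4 CPM in Dp16 sham cortex, against 11.05, 10.7, 8.26, 6.06 and 8.60 CPM in WT sham cortex. The first pair did not overlap, where 5.32% of all genes tested were higher without overlap, and the second did. Under tofacitinib it was at 12.8, 12.04, 11.5 and 12.7 CPM in 5xFAD-Dp16 cortex, against 9.36, 10.8, 7.06, 7.84 and 8.51 CPM in 5xFAD cortex. It was at 13.1, 9.14, 10.7, 11.8 and 14.1 CPM in Dp16 tofacitinib cortex, against 5.98, 9.69, 6.33, 9.55 and 7.77 CPM in WT tofacitinib cortex. The Dp16 and WT mice overlapped under tofacitinib, and 11 of the 15 carrier libraries were above every non-carrier library. The average log2 fold change was 0.47 (SE 0.0872), a 1.39-fold rise (95% interval 1.23 to 1.57, adjusted p 0.00127). Without the 2 libraries that stood apart it was 0.52, with an adjusted p of 0.000588.

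Ifngr1, the ligand-binding chain of the interferon gamma receptor, lies outside the segment and did not rise: it was at 14.2 to 21.6 CPM in carriers and at 15.4 to 22.0 CPM in non-carriers. It was at 14.2, 18.9 and 17.5 CPM in 5xFAD-Dp16 sham cortex, against 15.9, 17.3, 17.1 and 18.2 CPM in 5xFAD sham cortex. It was at 18.9, 20.9 and 18.2 CPM in Dp16 sham cortex, against 21.9, 15.8, 17.8, 16.9 and 15.4 CPM in WT sham cortex. All of these groups overlapped. Under tofacitinib it was at 17.3, 16.9, 21.3 and 17.4 CPM in 5xFAD-Dp16 cortex, against 18.7, 21.4, 17.7, 18.6 and 18.9 CPM in 5xFAD cortex. It was at 15.5, 20.7, 15.4, 21.6 and 20.1 CPM in Dp16 tofacitinib cortex, against 17.8, 18.3, 19.7, 18.4 and 22.0 CPM in WT tofacitinib cortex. No carrier library was above every non-carrier library. The average log2 fold change was 0.01 (SE 0.0617), a ratio of 1.01 with a 95% interval of 0.924 to 1.10 and an adjusted p of 0.965.

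**Figure D1:**
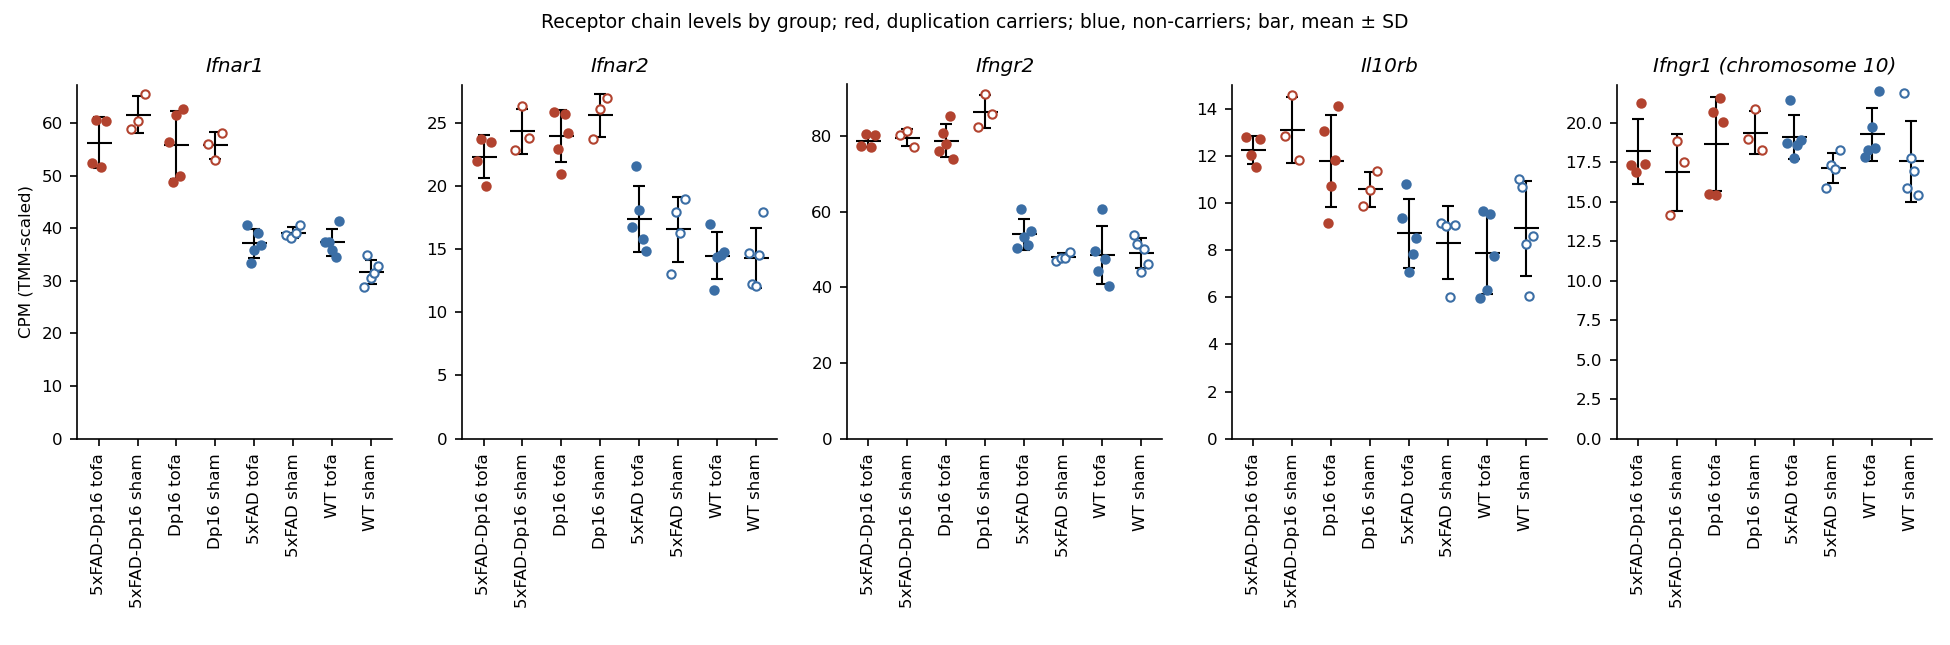
Level of each receptor chain in CPM in each of the 34 libraries, by genotype and treatment, with bars at the group mean and 1 SD. The carrier groups of Ifnar1 and Ifngr2 lie above all non-carrier groups, while those of Ifngr1 share 1 range.

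On the RPKM scale, which divides by gene length as well as by library size and so allows genes to be set side by side, the order in carriers was Ifngr2 at 21.8 ± 1.39, Ifnar1 at 14.6 ± 1.34, Ifngr1 at 8.68 ± 1.08, Ifnar2 at 7.55 ± 0.668 and Il10rb at 6.46 ± 0.777 (SD, n = 15). In non-carriers it was Ifngr2 at 13.5 ± 1.71, Ifnar1 at 9.24 ± 0.907, Ifngr1 at 8.67 ± 1.017, Ifnar2 at 4.93 ± 0.937 and Il10rb at 4.58 ± 0.926 (SD, n = 19). The order was the same in both, but it depends on the gene lengths behind the deposited values. With the union of M21 exons as length, chosen after seeing the data, Ifngr2 was still highest and Il10rb lowest in both. Ifnar2 at 7.19 ± 0.637 was then above Ifngr1 at 6.44 ± 0.800 in carriers, and Ifngr1 at 6.43 ± 0.754 was above Ifnar1 at 6.08 ± 0.597 in non-carriers. In the deposited RPKM values the means of Ifnar1 and Ifngr1 in non-carriers, and those of Ifnar2 and Il10rb in non-carriers, differed by less than 1 SD. In bulk tissue a change in the number of cells that express a gene and a change in RNA per cell cannot be told apart. The summed level of 15 microglial markers was 582 to 827 CPM with a median of 729 CPM in carriers, against 640 to 976 CPM with a median of 758 CPM in non-carriers. The summed level of 12 endothelial markers was 338 to 431 CPM with a median of 386 CPM in carriers, against 328 to 465.98 CPM with a median of 398 CPM in non-carriers. Markers of striatum, the region under the cortex, summed to 407 to 2072 CPM with a median of 853 CPM in carriers, against 571 to 2863 CPM with a median of 1470.4 CPM in non-carriers. Those of oligodendrocyte precursors had medians of 158 CPM in carriers and 182 CPM in non-carriers. The part of these differences in the results was not tested.

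Pair by pair, Ifnar1 and Ifngr2 were called in all 4 comparisons, Ifnar2 in both comparisons of Dp16 with WT, and Il10rb in none. For each pair 44 other fits changed the tool or a setting or left out 1 library. In sham-treated 5xFAD-Dp16 against 5xFAD, 2 of them called Ifnar2 and 1 called Il10rb. In the same pair under tofacitinib 1 of them called Ifnar2. In sham-treated mice the comparison of Dp16 with WT called 3 of the 5 chains, where 0.21% of all genes were called. Its log2 fold changes were 0.82 (SE 0.0904) for Ifnar1, 0.85 (SE 0.133) for Ifnar2, 0.81 (SE 0.0914) for Ifngr2 and 0.23 (SE 0.180, adjusted p 0.877) for Il10rb. The comparison of 5xFAD-Dp16 with 5xFAD in sham-treated mice called 2 of the 5, with 0.102% of all genes called. Its log2 fold changes were 0.66 (SE 0.0956) for Ifnar1, 0.57 (SE 0.142, adjusted p 0.168) for Ifnar2, 0.72 (SE 0.0976) for Ifngr2 and 0.60 (SE 0.188, adjusted p 0.621) for Il10rb. Whether the effects differed between these backgrounds is tested further on.

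Under tofacitinib the comparison of Dp16 with WT called 3 of the 5 chains, with 0.25% of all genes called. The log2 fold changes were 0.59 (SE 0.0795) for Ifnar1, 0.73 (SE 0.118) for Ifnar2, 0.70 (SE 0.0809) for Ifngr2 and 0.57 (SE 0.157, adjusted p 0.198) for Il10rb. The comparison of 5xFAD-Dp16 with 5xFAD under tofacitinib called 2 of the 5, with 0.238% of all genes called. Here the log2 fold changes were 0.60 (SE 0.0830) for Ifnar1, 0.36 (SE 0.122, adjusted p 0.322) for Ifnar2, 0.54 (SE 0.0842) for Ifngr2 and 0.49 (SE 0.163, adjusted p 0.309) for Il10rb. The Ifnar2 value was 0.46, with an adjusted p of 0.120, without the 2 libraries that stood apart. Ifngr1 was at 0.15 and -0.04 in Dp16 against WT under sham and tofacitinib, at -0.00 and -0.07 in 5xFAD-Dp16 against 5xFAD under sham and tofacitinib, and was called in none. Without the 2 libraries that stood apart the averages were 0.67 for Ifnar1, 0.65 for Ifnar2, 0.71 for Ifngr2 and 0.02 for Ifngr1. In the average of the 4 comparisons all 4 duplicated chains were called, all higher, and Ifngr1 was not, with 2.14% of all genes called. When each pair of groups was fitted alone, 4 of the 10 calls were lost: Ifnar2 in sham-treated Dp16 against WT (adjusted p 0.0640), Ifnar1 in tofacitinib-treated Dp16 against WT (adjusted p 0.0765), and both Ifnar1 and Ifngr2 in tofacitinib-treated 5xFAD-Dp16 against 5xFAD (adjusted p 0.135 each).

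**Figure D2:**
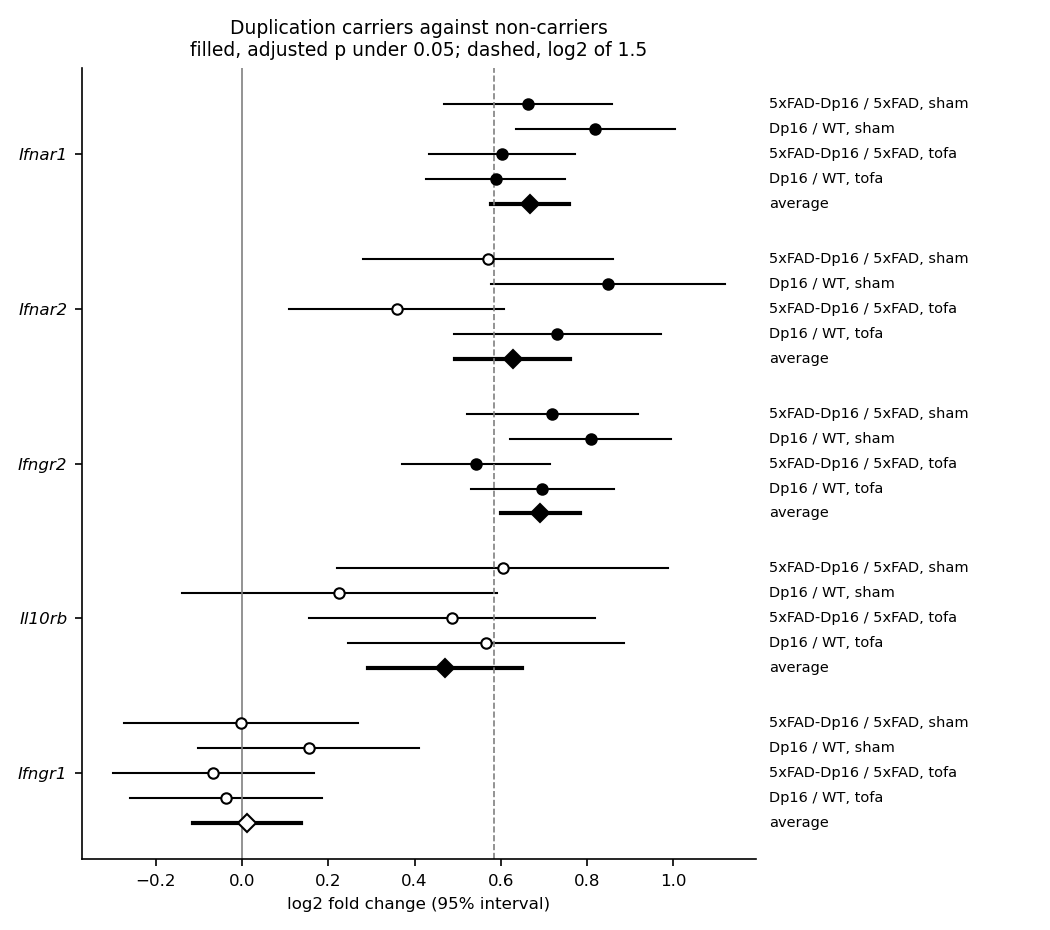
Log2 fold change of carriers over non-carriers for each chain in the 4 pairs and their average, with 95% intervals. Filled points have an adjusted p under 0.05, and the dashed line at 0.58 marks a ratio of 1.5.

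A gene present in 3 copies in place of 2 has 1.5 times as many templates. The 95% intervals of the average reached from 1.49 to 1.69 for Ifnar1, 1.41 to 1.70 for Ifnar2 and 1.23 to 1.57 for Il10rb, all of which include that ratio, and from 1.51 to 1.72 for Ifngr2, which lies just above it. The other 102 tested genes of the segment had a median log2 fold change of 0.55 in the average, a 1.46-fold difference, with quartiles of 0.44 and 0.65. Of these, 22 were above Ifngr2, 24 above Ifnar1, 32 above Ifnar2 and 74 above Il10rb. Within 500 kb of the cluster 20 other genes were tested, and 12 of them were called, all higher. In the same average 2.14% of all genes and 70 of the 106 tested genes of the segment were called. The count of 12 was 15 with limma-voom. Fold differences of all 20 lay between 0.944 and 1.73, with a median of 1.43. Dnajc28 was at 0.68, Cryzl1, a quinone oxidoreductase-like gene, at 0.70, Atp5o, a subunit of the mitochondrial ATP synthase, at 0.69 and Donson, a replication fork gene, at 0.79 on the log2 scale. Among the called genes the smallest change was that of Son, an RNA splicing cofactor, at 0.32. Olig1 and Olig2, transcription factors of the oligodendrocyte lineage that lie before Ifnar2, were at 0.22 (adjusted p 0.0522) and 0.14 (adjusted p 0.274) and were not called. The oligodendrocyte markers had a median sum of 7481 CPM in carriers and 8243 CPM in non-carriers, with overlapping ranges, and their part in the Olig1 and Olig2 values was not tested.

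**Figure D3:**
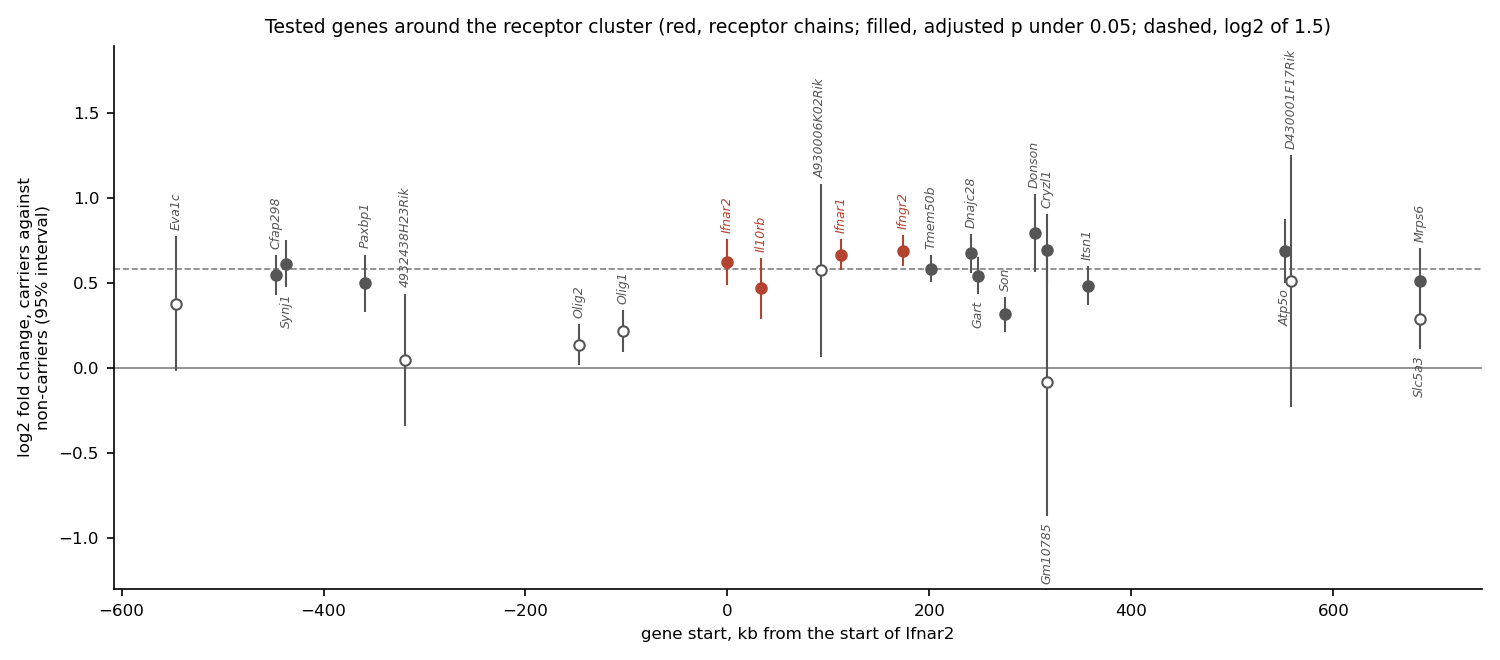
Average log2 fold change of carriers over non-carriers, with 95% intervals, for the genes tested within 500 kb of the cluster, against distance from the start of Ifnar2 in kilobases. Filled points have an adjusted p under 0.05; the chains lie among neighbours that range from 0.944-fold to 1.73-fold.

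Because a receptor needs both chains, the ratio of partner chains was taken in each library from the RPKM values. The size of a ratio depends on the gene lengths behind these values, while its log2 difference between carriers and non-carriers does not. Carriers had more Ifngr2 per Ifngr1. In sham-treated mice this ratio had a geometric mean of 2.63 in carriers (2.46 to 3.23, n = 6), against 1.60 in non-carriers (1.41 to 1.86, n = 9). Under tofacitinib it was 2.45 in carriers (2.07 to 2.88, n = 9), against 1.52 in non-carriers (1.04 to 1.76, n = 10). The groups did not overlap under either treatment. The differences in log2 ratio were 0.71 and 0.69, with exact two-sided permutation p-values of 0.0002 and 1.08e-05, the smallest that 5005 and 92378 arrangements allow, and adjusted p-values of 0.0005 and 5.41e-05 over the 10 ratio tests. Ifnar1 per Ifngr1, 2 chains of different receptors, differed in the same way, with geometric means of 1.76 in carriers and 1.09 in non-carriers under sham, and 1.65 in carriers and 1.05 in non-carriers under tofacitinib.

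For the 2 chains of the type I receptor, both duplicated, no difference in their ratio was detected. Ifnar2 per Ifnar1 was 0.524 in carriers and 0.534 in non-carriers under sham, and 0.510 in carriers and 0.523 in non-carriers under tofacitinib. The log2 differences were -0.03 under both treatments, and the exact permutation test gave an adjusted p of 0.796 for each. Il10rb per Il10ra, its partner in the interleukin 10 receptor, was higher in carriers. It was 3.91 in carriers (3.06 to 4.41) and 2.67 in non-carriers (1.78 to 4.41) under sham, and 3.60 in carriers (2.76 to 4.94) and 2.51 in non-carriers (1.44 to 3.27) under tofacitinib. The groups overlapped, and the adjusted p-values of the exact permutation test were 0.0133 and 0.00132 for log2 differences of 0.55 and 0.52. Il10rb per Ifngr2 was 0.284 in carriers and 0.350 in non-carriers under sham, a log2 difference of -0.30 that did not pass the exact permutation test (adjusted p 0.0833), and 0.303 in carriers and 0.321 in non-carriers under tofacitinib (adjusted p 0.683). The sham value passed the test when any 1 of 3 libraries was left out, WT sham 4, 5xFAD sham 3 or 5xFAD-Dp16 sham 2 (adjusted p 0.0243, 0.0323 and 0.0478).

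**Figure D4:**
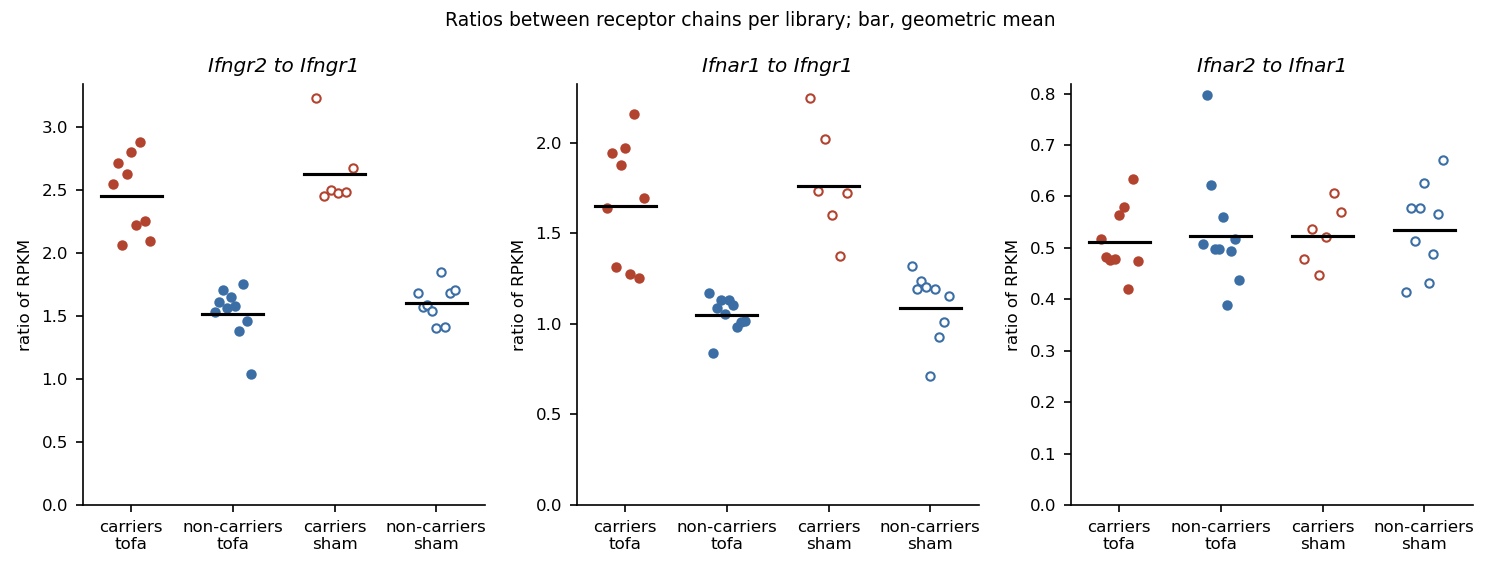
Ratio of RPKM values in each library for Ifngr2 to Ifngr1, Ifnar1 to Ifngr1 and Ifnar2 to Ifnar1, carriers left of non-carriers within each treatment, with bars at the geometric mean. The first 2 ratios are higher in carriers, while the third has geometric means of 0.510 to 0.534 in all 4 groups.

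edgeR called no receptor chain in any comparison of mice with and without the transgenes. Ifnar1 was at 38.2 to 40.6 CPM in 5xFAD sham cortex, against 28.9 to 34.9 CPM in WT sham cortex, as listed above, so all 4 libraries of 5xFAD mice were above all 5 of WT mice, as was the case for 4.94% of all genes tested. Its log2 fold change was 0.30 (SE 0.0843), a ratio of 1.23 with a 95% interval of 1.09 to 1.39, with an unadjusted p of 0.00123 and an adjusted p of 0.0606 that missed the threshold. No chain was called there by edgeR, with 0.017% of all genes called and 4377 of 17632 genes at an unadjusted p under 0.05. That count of 3 genes called was 1981 without WT sham 3, 1532 with DESeq2 and 2512 with limma-voom. Ifnar1 itself passed with DESeq2 (adjusted p 0.0289), with limma-voom (adjusted p 0.0152), without the sex term (adjusted p 0.0496) and when any 1 of 4 libraries was left out (5xFAD tofacitinib 1 or 2, WT tofacitinib 1 or WT sham 3, adjusted p 0.0292 to 0.0452). With both libraries that stood apart left out the log2 fold change was 0.34 and the adjusted p 0.152. Several marker sums moved with this comparison. Microglial markers summed to 747 to 884 CPM in 5xFAD sham cortex and 648 to 775 CPM in WT sham cortex, and endothelial markers had medians of 434 CPM in 5xFAD sham and 379 CPM in WT sham cortex. Cortex markers had medians of 773 CPM in 5xFAD sham and 590.3 CPM in WT sham cortex, and choroid plexus markers 10.6 CPM in 5xFAD sham and 142 CPM in WT sham cortex. Their part in the Ifnar1 value was not tested.

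In the other 3 transgene pairs no chain was called either, with 0.00567% of all genes called in sham-treated 5xFAD-Dp16 against Dp16, 0.017% in tofacitinib-treated 5xFAD against WT and 0.00567% in tofacitinib-treated 5xFAD-Dp16 against Dp16. The 20 values of the 5 chains in the 4 pairs lay between -0.20 for Ifngr1 and 0.30 for Il10rb, both in sham-treated 5xFAD-Dp16 against Dp16. Of these 10 were above 0 and 2 had an unadjusted p under 0.05. In the average of the 4 pairs the log2 fold changes were 0.11 for Ifnar1 (95% interval 0.02 to 0.20, adjusted p 0.164), 0.07 for Ifnar2, 0.00 for Ifngr2, 0.11 for Il10rb and -0.07 for Ifngr1. None was called by edgeR, with 0.42% of all genes called, nor by DESeq2 or limma-voom in this average or in the 3 pairs named last.

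Tofacitinib acts on the kinases that these receptors use, and the transcripts of the chains were called in none of the 4 comparisons with sham nor in their average. The share of all genes called was 0% in each of the 5 comparisons with edgeR, with 338, 362, 2617 and 1288 genes at an unadjusted p under 0.05 in 5xFAD-Dp16, Dp16, 5xFAD and WT mice and 592 in the average. DESeq2 called 0, 1, 0 and 2 genes in those genotypes and 1 in the average, and limma-voom called 990 in 5xFAD mice and 0 in the other 4 comparisons, but neither called a receptor chain. With edgeR, 352 genes were called in 5xFAD mice without 5xFAD tofacitinib 1, 2 in WT mice without WT tofacitinib 4, and 31 to 93 in 5xFAD-Dp16, Dp16 and WT mice and the average without a filter on low counts. The 20 values of the chains lay between -0.18 for Il10rb and 0.23 for Ifnar1, both in WT mice. Ifnar1 in WT mice was the 1 value with an unadjusted p under 0.05 (p 0.00636, adjusted p 0.661), with ranges of 34.5 to 41.5 CPM under tofacitinib and 28.9 to 34.9 CPM under sham that overlapped. In the average over genotypes the 95% intervals of the log2 fold change were -0.08 to 0.10 for Ifnar1, -0.16 to 0.10 for Ifnar2, -0.09 to 0.09 for Ifngr2, -0.18 to 0.17 for Il10rb and -0.04 to 0.21 for Ifngr1.

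**Figure D5:**
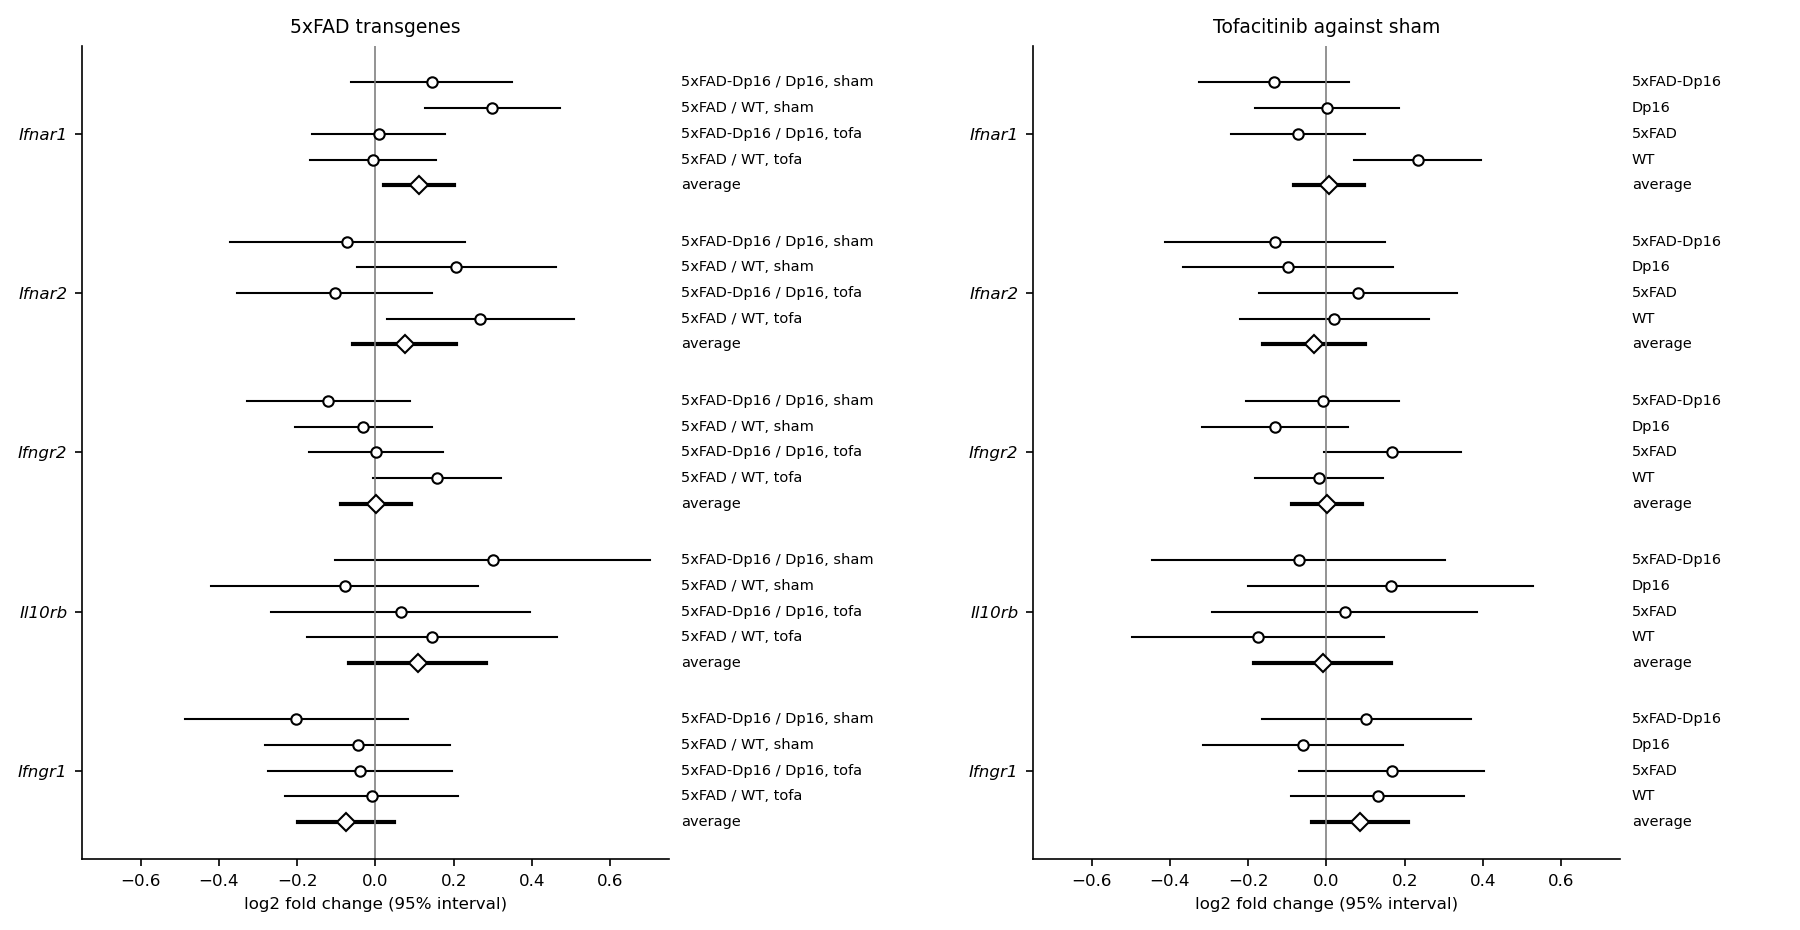
Log2 fold change of each chain, with 95% intervals, for mice with over mice without the 5xFAD transgenes and for tofacitinib over sham. No point is filled, since no adjusted p was under 0.05, and the averages lie between -0.07 and 0.11.

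The effect of the duplication was then compared between backgrounds. With against without the transgenes, the difference between the duplication effects ranged from -0.33 for Ifnar2 to 0.15 for Il10rb on the log2 scale, none called, with 0.00567% of all genes called. For Ifnar2 the 95% interval was -0.59 to -0.06, with an unadjusted p of 0.0164 and an adjusted p of 0.995, and without the 2 libraries that stood apart the value was -0.25. Under tofacitinib against sham the duplication effects differed by -0.17 for Ifnar2, -0.15 for Ifnar1, -0.15 for Ifngr2, -0.13 for Ifngr1 and 0.11 for Il10rb. No chain was called, and no gene, with 410 genes at an unadjusted p under 0.05 in edgeR, a share called of 0%, and 0 genes called by DESeq2 and limma-voom. The transgene effect under tofacitinib less that under sham was -0.22 for Ifnar1 (SE 0.0872, unadjusted p 0.0165, adjusted p 0.331) and 0.15 for Ifngr2 (adjusted p 0.392). No chain was called by edgeR or DESeq2, 0% of all genes were called with 2548 at an unadjusted p under 0.05, and limma-voom called both Ifnar1 (-0.25, adjusted p 0.0238) and Ifngr2 (0.21, adjusted p 0.0344) among 3500 genes.

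The ligands of these receptors and of related receptors were at or near 0 in cortex. Of 20 ligand genes looked up none passed the filter on low counts. Among the 20 are Il19, Il20 and Il24, whose receptors are related but do not contain the chains described here. Ifnb1, Ifng, Il10, Ifnl2 and Ifnl3 had no read in any of the 34 libraries. Il22 had 82 reads over 17 libraries, Il19 had 7, Ifnz 4, Ifna2 3, Ifna5 2 and Ifne 1. Of 6 partner chains of Il10rb and its relatives, Il10ra was measured at 6.12 ± 1.15 CPM in carriers and 6.25 ± 1.48 CPM in non-carriers (SD, n = 15 and 19), with a log2 fold change of -0.04 in the duplication average. Ifnlr1 and Il22ra1, the chains that give Il10rb its interferon lambda and interleukin 22 partners, had 88 and 7 reads in all. The 2 partner chains tested, Il10ra and Il20ra, had a median log2 fold change of -0.35, and neither was called. That median lies well below the -0.04 of Il10ra. Il20ra was near the floor, at 0.375 ± 0.301 CPM in carriers and 0.479 ± 0.378 CPM in non-carriers.

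The Janus kinases downstream were expressed, and none was called in the duplication average by edgeR, DESeq2 or limma-voom, with 1 of the 4 kinases at an unadjusted p under 0.05 in edgeR. Jak1 averaged 143 ± 14.8 CPM in carriers and 143 ± 18.8 CPM in non-carriers, and Jak2 33.7 ± 2.89 CPM in carriers and 35.4 ± 4.79 CPM in non-carriers. Tyk2, the kinase of Ifnar1, averaged 8.19 ± 1.44 CPM in carriers and 7.07 ± 1.26 CPM in non-carriers (log2 fold change 0.19, adjusted p 0.310), and Jak3 4.64 ± 1.04 CPM in carriers and 4.17 ± 1.22 CPM in non-carriers (SD, n = 15 and 19). Of the 4 Janus kinases 3 were above 0, with a median log2 fold change of 0.08, where 51.3% of all genes were above 0 and their median was 0.00. Of 9 inhibitors of receptor signalling none was called by the same 3 tools, 1 had an unadjusted p under 0.05 and 4 were above 0. Usp18, which binds Ifnar2 and dampens type I signalling, was at 1.78 ± 0.946 CPM in carriers and 1.06 ± 0.668 CPM in non-carriers, a log2 fold change of 0.64 (adjusted p 0.276).

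Targets of the receptors were looked at in 2 lists, none of whose genes lies in the duplicated segment, and which were chosen with results of these data known. Of 35 tested targets of type I interferon 32 were above 0 in the duplication average, with a median log2 fold change of 0.26, and 3 were called, all higher, where 51.3% of all genes were above 0 and 2.14% were called. Ifi27 was at 22.6 to 36.7 CPM with a median of 26.6 CPM in carriers, against 15.4 to 31.9 CPM with a median of 20.4 CPM in non-carriers (log2 fold change 0.42, adjusted p 0.000810). Irf7, the transcription factor that amplifies type I interferon production, was at 3.11 to 10.6 CPM with a median of 4.76 CPM in carriers, against 1.47 to 5.20 CPM with a median of 3.22 CPM in non-carriers. All of these ranges overlapped. Its log2 fold change was 0.60 (adjusted p 0.0202), and its call was lost without Dp16 sham 3 (adjusted p 0.0946), without 5xFAD-Dp16 sham 2 (adjusted p 0.0541) and with a replicate block (adjusted p 0.0684). Lgals3bp, a secreted glycoprotein, was at 0.51 (adjusted p 0.0138). The count of 3 was 2 with the replicate block and without 5xFAD-Dp16 sham 2, 5 with DESeq2 and without WT tofacitinib 3, 6 without a filter on low counts and 7 with limma-voom.

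Of 32 tested targets of interferon gamma 27 were above 0, with a median log2 fold change of 0.19, and 6 were called, all higher, against the same 2.14% of all genes. They were genes of antigen presentation. In no single pair of carriers and non-carriers did edgeR call a gene of either list. H2-K1, a class I heavy chain, was at 29.0 to 53.5 CPM with a median of 35.2 CPM in carriers, against 19.2 to 38.2 CPM with a median of 28.3 CPM in non-carriers (log2 fold change 0.36, adjusted p 0.00908). H2-D1, another class I heavy chain, was at 0.34 (adjusted p 0.00481), and B2m, their light chain, at 0.23 (adjusted p 0.00911). The carriers' values of these genes overlapped with the upper part of the non-carriers' values. Psmb9, a subunit of the immunoproteasome, was at 2.37 to 3.65 CPM with a median of 3.14 CPM in carriers, against 1.22 to 3.89 CPM with a median of 1.86 CPM in non-carriers (log2 fold change 0.55, adjusted p 0.0194), and it was not called without Dp16 sham 3 (adjusted p 0.0767) or 5xFAD-Dp16 sham 4 (adjusted p 0.0565). H2-Ab1 and H2-Eb1, class II chains with medians of 2.76 and 2.31 CPM in carriers and 1.60 and 1.47 CPM in non-carriers, were at 0.75 (adjusted p 0.0381) and 0.69 (adjusted p 0.0376). The call of H2-Ab1 held in 19 and that of H2-Eb1 in 18 of the 34 fits that each left out 1 library, and both were lost with the replicate block (adjusted p 0.0939 and 0.0737). The count of 6 was 3 without 5xFAD-Dp16 sham 4, 4 with the replicate block, and 8 without a filter on low counts and without 5xFAD tofacitinib 2. The summed markers of microglia, which express these genes, were given above and were not higher in carriers by their median. Markers of peripheral myeloid cells and lymphocytes, some of which also express class II genes, summed to 0.448 to 14.8 CPM with a median of 1.87 CPM in carriers, against 0.0617 to 5.16 CPM with a median of 1.22 CPM in non-carriers. The part of cell numbers in these values was not tested.

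In the transgene average 32 of the 35 type I targets were above 0, with a median log2 fold change of 0.32, and 4 were called higher, Oasl2 (1.07, adjusted p 0.000578), Lgals3bp (0.66, adjusted p 0.00390), Ddx58 (0.63, adjusted p 0.0378) and Ifit3b (0.59, adjusted p 0.0329). Of these, Oasl2 and Lgals3bp were called in all 34 fits that each left out 1 library, Ifit3b in 20 and Ddx58 in 18. The count of 4 was 2 to 6 over those fits, lowest without WT sham 4 and several other single libraries, 2 with DESeq2 and with a replicate block, and 11 without a filter on low counts. Of all genes 50.7% were above 0 and 0.42% were called in that comparison. Of the 32 gamma targets 23 were above 0, and edgeR called none, with 11 at an unadjusted p under 0.05, while DESeq2 and limma-voom each called 2. Of the 9 inhibitors 8 were above 0 and not called, while Ptpn2, a phosphatase of the Janus kinases, was called lower at -0.33 (adjusted p 0.0489), a call that held in 10 of those 34 fits. Under tofacitinib against sham 17 of the 35 type I targets and 15 of the 32 gamma targets were above 0 in the average, with medians of -0.01 and -0.00, and none was called by edgeR, DESeq2 or limma-voom, with 1 gene of each list at an unadjusted p under 0.05 in edgeR. In that comparison 53.0% of all genes were above 0.

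Over the 34 libraries the log2 CPM values of Ifnar1, Ifnar2 and Ifngr2 were correlated with one another and with those of other segment genes. The correlations are a description only, since the genes of a library share its depth and tissue piece. Pearson's r was 0.82 for Ifnar1 with Ifnar2, 0.84 for Ifnar1 with Ifngr2 and 0.87 for Ifnar2 with Ifngr2. It was 0.62 to 0.68 for Il10rb with these 3, and -0.11 to 0.07 for Ifngr1 with the other 4. Among the 14475 genes that averaged 1 CPM or more, the 5 most like Ifnar1 were Ttc3 (0.94), Dyrk1a (0.93), Usp25 (0.91), Brwd1 (0.91) and Synj1 (0.89). Those most like Ifngr2 were Vps26c (0.95), Cct8 (0.94), Jam2 (0.92), Tmem50b (0.91) and Morc3 (0.90), and those most like Ifnar2 were Vps26c (0.89), Ifngr2 (0.87), Cct8 (0.85), Gart (0.84) and Jam2 (0.82). All of these lie in the duplicated segment. For Il10rb they were Jam2 (0.75), Apln (0.73), H2-K1 (0.73), Ltn1 (0.70) and Grik1 (0.69), of which Apln and H2-K1 lie outside it, and for Ifngr1 they were Nqo1 (0.64), Acadvl (0.57), Snx22 (0.56), Gjb6 (0.56) and Hyls1 (0.56), none of which lies in it.

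Once group and sex were taken out of the values, these correlations were small or negative. The correlation of the remaining deviations was -0.11 for Ifnar1 with Ifnar2, -0.44 for Ifnar1 with Ifngr2 and 0.29 for Ifnar2 with Ifngr2. It was -0.43 for Ifnar1 with Ifngr1 and 0.23 for Ifngr2 with Ifngr1. The genes whose deviations were most like those of each chain were Rnf112 for Ifnar1 (0.73), Tmem163 for Ifnar2 (0.67), Cnih2 for Ifngr2 (0.87), Spg20 for Il10rb (0.70) and Gtf3c5 for Ifngr1 (0.65). None of the 5 genes most like each chain by this measure lies in the segment.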

How the data were processed

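Cortex poly-A RNA of 34 mice was sequenced as strand-specific paired-end libraries. The authors deposited raw counts per gene and RPKM values. Per the submitters' processing notes, reads were handled with HISAT2 2.1.0 on the GRCm38 build and HTSeq 0.6.1, next to SAMtools 1.5, FastQC 0.11.5 and bcl2fastq, whose order is not stated. The strand setting of the counting is not given in the sources used here, so antisense reads cannot be told apart from it. The deposited RPKM values are counts scaled by library total and gene length.

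Tests on counts used the edgeR package (4.0.16, under R 4.3.3): genes with low counts were left out by filterByExpr, libraries were scaled by TMM, and all 8 groups were fitted with sex as a covariate by the quasi-likelihood method. Adjusted p-values are Benjamini-Hochberg over 17632 genes in each of 18 comparisons, and SE is the log2 fold change over the root of the F statistic. An average weights its 4 pairs equally, and an interaction is halved the same way over its 2 backgrounds. CPM values are counts scaled to library totals times their TMM factors. Ratios of RPKM values were tested with two-sided exact permutation tests, adjusted over 10 tests. Libraries were permuted within each treatment without regard to transgenes or sex, unlike in the edgeR fit. Alternatives used limma 3.58.1 and DESeq2 1.42.0. The edgeR fit was also run on simulated counts, in which no library was made to stand apart, and the outcome is not reported here. Each library is 1 mouse, library totals were 16029841 to 21388650 reads, and Il10rb had the fewest reads of the chains. Positions come from GENCODE M21; 55144 of the 55385 genes had one, and the counts may rest on another release.

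The 5 genes and all gene lists were chosen with earlier results of these data known. One of the lists is not reported here. The genes most like each chain are the 5 with the highest Pearson correlation, and pathway genes are named where called or where they are central to the pathway.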

Additional observations from a re-analysis of the deposited data

Results flagged for a closer look

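Of 30 groups of receptor chain values with at least 4 libraries, 2 held a library far from the rest, and chance alone gives about 1 in 20. Il10rb was lowest in 5xFAD sham 3, at 6.02 CPM, where the other 3 libraries of that group were between 9.02 and 9.16 CPM. Ifngr1 was highest in 5xFAD-Dp16 tofacitinib 3, at 21.3 CPM, where the other 3 libraries were between 16.9 and 17.4 CPM. The cause of neither was tested.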

How the results depend on the processing

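The averaged duplication effect was called for Ifnar1 (0.65 to 0.71), Ifnar2 (0.59 to 0.66), Ifngr2 (0.68 to 0.71) and Il10rb (0.44 to 0.52) under all 43 alternatives, of which 34 each left out 1 library, and for Ifngr1 under none. The alternatives for pathway genes and neighbours were added after seeing the data. The cause of the changes below was not tested. The count of chains called was 4 with limma-voom in sham-treated 5xFAD-Dp16 against 5xFAD, against 2. It was 0 when only the groups compared were fitted in tofacitinib-treated 5xFAD-Dp16 against 5xFAD, against 2. In sham-treated 5xFAD against WT it was 1 without the sex term, with DESeq2 and with limma-voom, and 0 to 1 with each library left out, against 0. For the transgene and tofacitinib interaction it was 2 with limma-voom, against 0.

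Values near 0 changed sign. Of 35 values given in the report as ranges, 18 estimates with another setting changed sign and 332 did not, and 39 estimates without 1 library did and 1151 did not. Ifngr1 in sham-treated 5xFAD-Dp16 against 5xFAD was 0.025 with the replicate block, 0.0029 without the 2 libraries that stood apart and 0.024 with only the groups compared. The Ifngr2 transgene average was -0.0047 with DESeq2 size factors, -0.0033 with a mean of at least 1 CPM, -0.015 with the replicate block, -0.0062 without the 2 libraries and -0.0048 with DESeq2. In the tofacitinib average Ifnar1 was -0.029 with the replicate block, Il10rb was 0.040 with limma-voom, and Ifngr2 was -0.00049 with scaling without segment genes, -0.0028 without a filter, -0.0065 without the 2 libraries and -0.025 with limma-voom. For the transgene and tofacitinib interaction Ifnar2 was -0.012 without the 2 libraries, and Il10rb was 0.0019 without a filter, 0.0086 with a mean of at least 1 CPM, 0.0031 without the sex term, 0.0097 with the replicate block and 0.000084 with DESeq2. The log2 difference in Ifnar2 per Ifnar1 under tofacitinib was 0.034 without the 2 libraries.

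With each library left out in turn, Ifngr1 ranged over -0.095 to 0.096 in sham-treated 5xFAD-Dp16 against 5xFAD, -0.093 to 0.018 in tofacitinib-treated Dp16 against WT and -0.012 to 0.049 in the duplication average. In sham-treated 5xFAD against WT, Il10rb ranged over -0.19 to 0.041 and Ifngr1 over -0.098 to 0.050. The Ifngr2 transgene average ranged over -0.014 to 0.029. In the tofacitinib average the ranges were -0.0044 to 0.020 for Ifnar1, -0.024 to 0.016 for Ifngr2 and -0.040 to 0.020 for Il10rb. For the transgene and tofacitinib interaction they were -0.037 to 0.054 for Ifnar2 and -0.066 to 0.048 for Il10rb. The log2 difference in Il10rb per Ifngr2 under sham ranged over -0.37 to -0.25, and that in Ifnar2 per Ifnar1 over -0.074 to 0.016 under sham and -0.081 to 0.034 under tofacitinib.

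No pairing of mice by replicate number was seen in the correlation of deviations. Its median was -0.039 (-0.47 to 0.24) for same-numbered libraries and 0.011 (-0.31 to 0.34) for others. Such a median cannot show that the mice were not paired. With the replicate block the duplication average called 206 genes, against 378, and no count of chains called changed. Across alternatives that kept all libraries or left out those 2, counts of genes called ranged over 6 to 158 (Dp16 against WT, sham), 13 to 145 (5xFAD-Dp16 against 5xFAD, sham), 13 to 147 (Dp16 against WT, tofacitinib), 0 to 295 (5xFAD-Dp16 against 5xFAD, tofacitinib), 206 to 1163 (duplication average), 1 to 2512 (5xFAD against WT, sham) and 17 to 1358 (transgene average). With each library left out, they ranged over 23 to 43, 13 to 24, 31 to 91, 28 to 113, 263 to 541, 1 to 1981 and 15 to 293 in the same comparisons. For tofacitinib against sham the count of 0 was at most 93 in 5xFAD-Dp16, 31 in Dp16, 990 in 5xFAD, 50 in WT and 51 in the average, and at most 352 in 5xFAD, 2 in WT and 0 in the other 3 with each library left out. Il10rb had the fewest reads of the chains and the largest SE in each single duplication pair. The part of its read number in that SE was not tested.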
